A study of Callithrix jacchus with 4 samples.

Results

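The constitutive proteasome genes are described here in frontal cortex of the common marmoset (Callithrix jacchus), a New World monkey. All animals were adults. Members were taken by gene symbol: every gene of the deposited count table named PSMA to PSMG with a number, except PSMB8, PSMB9 and PSMB10, which encode the inducible subunits of the immunoproteasome. This gave 45 of the 35108 genes in the table: 8 alpha subunits (PSMA), 8 beta subunits (PSMB), 6 ATPases (PSMC), 14 non-ATPase subunits (PSMD), 4 activator genes (PSME), 1 inhibitor gene (PSMF1) and 4 genes of assembly chaperones (PSMG). The series has 4 RNA-seq libraries: 2 are wild type by their labels and 2 come from carriers of an APP transgene, which per the title of the series is mutant and under the promoter of human EF1α, a promoter active in most cell types. APP encodes the amyloid precursor protein, the source of the amyloid-β peptide. The transgenic animals are labelled female, and the labels give no sex for the wild type. Whether each library is from its own animal is not stated in the labels, so p-values may not measure the spread between animals. They rest on the spread between these libraries, moderated across genes, and for the transgenic pair that spread may be technical. The wild-type pair differed in a Y-linked gene, given with the markers.

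The 26S proteasome degrades proteins tagged with ubiquitin. Its barrel-shaped core particle is built of stacked rings of alpha and beta subunits, and only some beta subunits cut peptide bonds. The regulatory particle caps the barrel: its non-ATPase subunits bind ubiquitin chains and remove them, and its ring of ATPases unfolds the substrate and threads it into the core. Other activators can take the cap's place and open the barrel without ATP. In neurons the proteasome is needed for turnover of synaptic proteins, and the clearance of misfolded proteins has made it a long-standing subject of work on Alzheimer's disease.

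The 4 libraries held between 12657323 and 18932180 counts in all and between 43663 and 65051 counts on the proteasome genes. Transgenic library 2 stood apart from the rest: the chi-square per degree of freedom over genes was 41.2 to 53.4 in the pairs with it and 8.02 to 14.0 in the others. The marker genes of cortex were present, with 6 of 6 markers of excitatory neurons detected and a summed level of 5251 to 6314 CPM (counts scaled to library size with TMM factors) over the libraries. The 6 astrocyte markers summed to 6765 and 5759 CPM in wild-type libraries 1 and 2, 6093 in transgenic library 1 and 1542 in transgenic library 2. The 6 oligodendrocyte markers summed to 2790, 2210, 2745 and 922 CPM in the same order. The 6 microglial markers summed to 147, 201, 117 and 61.6 CPM, and no marker of these lists was at 0. The 6 markers of inhibitory neurons summed to 627, 646, 739 and 808 CPM. APP itself, the gene of the transgene, was at 1822 and 2182 CPM in the wild-type pair, against 2143 and 2748 CPM in the transgenic pair, so that the groups overlapped (log2 fold change 0.29 ± 0.22 SE; adjusted p = 0.80 in edgeR's quasi-likelihood test). The build and annotation behind the counts are not given, so it is not known whether reads of the transgene are counted under APP. Counts of the Y-linked gene KDM5D were 2 and 243 in wild-type libraries 1 and 2 and 0 in each transgenic library, so the wild-type libraries do not stem from 1 animal, and sex is in part confounded with genotype.

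Of the 45 proteasome genes, 43 were expressed above the low-count filter, with 44 to 4485 counts per gene and library. None passed edgeR's quasi-likelihood test at an adjusted p of 0.05 in either direction, where the share of all 16385 genes tested that passed was 0% higher and 0% lower. None reached an unadjusted p of 0.05 either, against 3.23% of all genes on the higher side and 2.39% on the lower. DESeq2 also called 0 of the 43, against 0.159% of all genes as higher and 0.134% as lower. By sign of the fitted change 26 of 43 were higher in transgenic cortex and 17 lower, where 49.6% and 50.4% of all genes tested were. The median over the members was a log2 fold change of 0.01 (quartiles -0.05 and 0.09), and that of all genes tested was 0.00 (quartiles -0.22 and 0.19). The split by sign depends on the scaling and on single libraries: 15 were higher with library totals left unscaled, 11 without transgenic library 2 (median -0.08), 18 without wild-type library 2, 27 without wild-type library 1 and 32 without transgenic library 1. The extremes were PSME2 at 0.54 and PSMG4 at -0.44. In bulk tissue, fewer cells of a type and less RNA per cell cannot be told apart.

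The other 2 genes had no count in any library. PSMA8 encodes an alpha subunit of the proteasome of male germ cells, and PSMB11 a beta subunit of the proteasome of the thymic cortex. A count of 0 allows up to 0.17 to 0.23 CPM, the value of 3 counts in these libraries.

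The intervals of the fitted differences say how large a change these libraries leave possible. The 95% interval lay within a 1.5-fold change in either direction for 36 of the 43 genes, and for 27.3% of all genes tested (33.7% of the genes whose mean count lay between the lowest and the highest of the proteasome genes). It lay within a 2-fold change for 40 of 43, against 60.3% of all genes and 74.96% of those in that range of counts. That range of mean counts, 58.25 to 3540.25, held 11992 of the 16385 genes tested, so it matches level only loosely. The 7 genes whose interval reached past 1.5-fold were PSMB3, PSMC6, PSME1, PSME2, PSMG2, PSMG3 and PSMG4. Within 1.25-fold lay 3 of 43 intervals, against 0.39% of all genes and 0.49% of those in that range of counts. The intervals of the other 40 members reached past 1.25-fold. The part of the count level in these shares was not tested. The intervals use a spread estimated largely across genes (5.3 degrees of freedom, of which 2 come from the libraries).

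**Figure D1:**
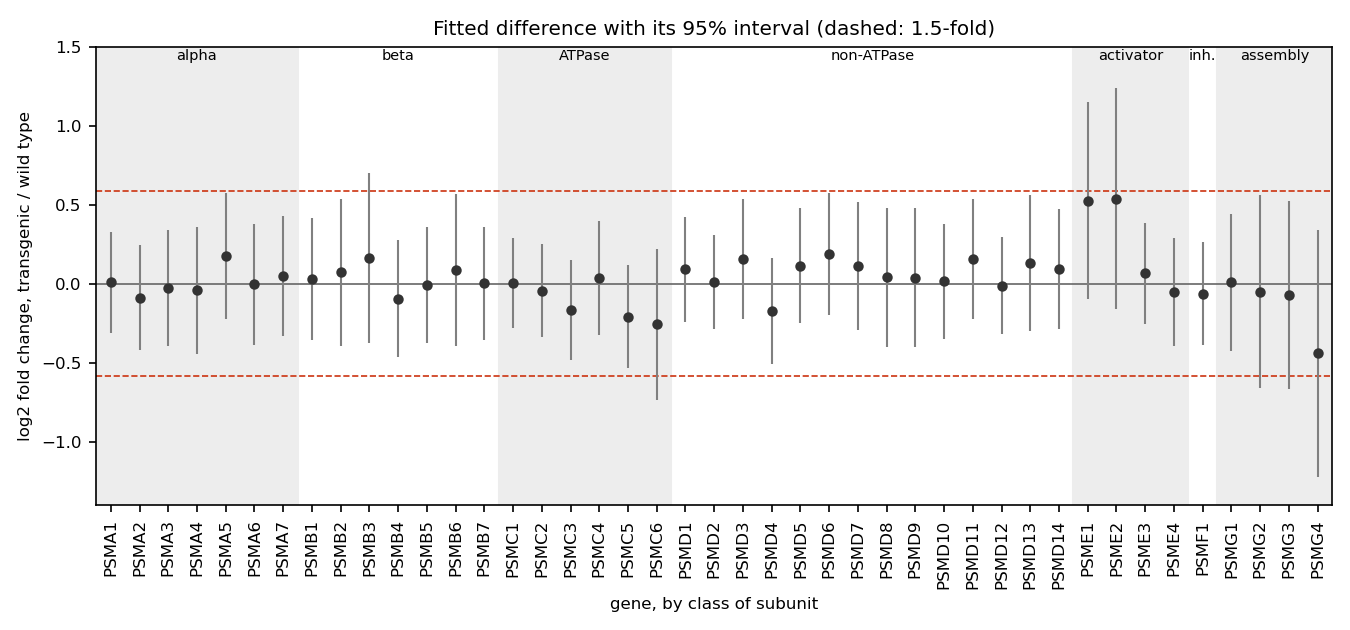
Fitted log2 fold change of transgenic over wild type (vertical axis) for the 43 proteasome genes above the low-count filter, grouped by class of subunit along the horizontal axis. Points are the edgeR estimates (2 libraries per group), bars their 95% intervals and dashed lines a 1.5-fold change: 36 of 43 intervals lie between the dashed lines, and the highest points are PSME1 at 0.53 and PSME2 at 0.54.

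The alpha subunits form the outer rings of the core particle and gate the entry to it. Of the 7 detected, 3 were higher and 4 lower by sign, and their log2 fold changes ran from -0.09 to 0.17 around a median of 0.00. PSMA5 was the 1 alpha gene whose groups did not overlap, at 39.6 and 37.0 CPM in wild-type libraries 1 and 2 and at 39.8 and 46.7 CPM in transgenic libraries 1 and 2. Transgenic library 1 lay barely above wild-type library 1 (log2 fold change 0.17 ± 0.16 SE; adjusted p = 0.82 in edgeR). Of all genes tested, 19.5% had groups without overlap on the higher side and 19.4% on the lower. PSMA2 was at 79.3 and 75.5 CPM in the wild-type pair, against 76.6 and 69.1 CPM in the transgenic pair, the lowest fitted change of the class (log2 fold change -0.09 ± 0.13 SE). PSMA7 was at 64.3 and 60.4 CPM in the wild-type pair, against 58.7 and 70.2 CPM, so that the transgenic libraries lay on either side of the wild-type pair. The same arrangement, transgenic library 1 lowest and transgenic library 2 highest, held for PSMA3, PSMA4 and PSMA6, and PSMA1 lay between 71.2 and 77.6 CPM in all 4 libraries.

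Of the beta subunits, PSMB5, PSMB6 and PSMB7 carry the active sites, which cut after hydrophobic, acidic and basic residues respectively. PSMB5 was at 68.2 and 60.7 CPM in the wild-type pair, against 60.0 and 68.1 CPM in transgenic libraries 1 and 2. PSMB6 was at 62.0 and 63.5 CPM in the wild-type pair, against 55.9 and 77.5 CPM. PSMB7 was at 92.9 and 84.6 CPM in the wild-type pair, against 82.1 and 95.8 CPM. In all 3 catalytic genes transgenic library 1 was the lowest of the 4, and in PSMB6 and PSMB7 transgenic library 2 was the highest, so the groups overlapped. The log2 fold changes were -0.01 ± 0.15 SE, 0.09 ± 0.19 SE and 0.00 ± 0.14 SE, with adjusted p between 0.91 and 0.997 in edgeR. For PSMB5 the 95% interval ran from -0.38 to 0.36, for PSMB6 from -0.39 to 0.57 and for PSMB7 from -0.36 to 0.36 on the log2 scale.

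The 4 structural beta subunits complete the inner rings without a cutting site, and their groups overlapped as well. So did those of 10014 of all 16385 genes tested. PSMB3 was at 42.1 and 46.1 CPM in the wild-type pair, against 40.4 and 58.3 CPM in the transgenic pair, the highest fitted change among the beta genes (log2 fold change 0.16 ± 0.21 SE; adjusted p = 0.86 in edgeR). Its sign rested on transgenic library 2, without which the value was -0.13. PSMB4 was at 69.3 and 65.6 CPM in the wild-type pair, against 57.8 and 68.4 CPM (log2 fold change -0.10 ± 0.15 SE). PSMB1 and PSMB2 were, like PSMB6 and PSMB7, lowest in transgenic library 1 and highest in transgenic library 2. Over the 7 detected beta genes the log2 fold changes had a median of 0.03, which became -0.13 with transgenic library 2 left out.

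The 6 ATPases form the ring that unfolds substrates. In 4 of them both transgenic libraries were under the whole wild-type pair: PSMC2, PSMC3, PSMC5 and PSMC6. Over all members this was so for 6 of 43, where 19.4% of all genes tested did the same, and the other 2 were PSMD4 and PSMG4. PSMC5 was at 127 and 114 CPM in the wild-type pair, against 99.8 and 108 CPM in the transgenic pair (log2 fold change -0.21 ± 0.13 SE; adjusted p = 0.79 in edgeR). PSMC3 was at 159 and 142 CPM in the wild-type pair, against 132 and 137 CPM (log2 fold change -0.17 ± 0.13 SE; adjusted p = 0.80). In both genes the gap between the nearest wild-type and transgenic libraries was smaller than that between the wild-type libraries.

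PSMC6 was the ATPase with the lowest fitted change, and 1 library set it. It was at 95.9 and 100.6 CPM in wild type, at 95.9 CPM in transgenic library 1 and at 68.7 CPM in transgenic library 2. Transgenic library 1 thus matched wild-type library 1 to 3 digits, and transgenic library 2 lay below the other 3 (log2 fold change -0.26 ± 0.19 SE; adjusted p = 0.80 in edgeR). Its log2 fold change was -0.04 when transgenic library 2 was left out and -0.52 when transgenic library 1 was (adjusted p = 0.059). PSMC6 was also 1 of the 5 detected members that were lower in transgenic library 2 than in transgenic library 1.

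The remaining ATPases had fitted changes close to 0. PSMC1 lay between 137 and 139 CPM in all 4 (log2 fold change 0.01 ± 0.11 SE, 95% interval -0.28 to 0.29). PSMC2 was at 103.5 and 104.1 CPM in the wild-type pair, against 102.9 and 98.6 CPM, so that its groups did not overlap although the fitted change was -0.04. PSMC4 was at 58.3 and 68.3 CPM in the wild-type pair, against 64.3 and 65.7 CPM, with both transgenic libraries between the wild-type ones, which were the farther apart. The class median was -0.10, and -0.03 without transgenic library 2.

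Among the non-ATPase subunits, 8 form the lid of the regulatory particle, 3 belong to its base, and 3 (PSMD5, PSMD9 and PSMD10) are chaperones that help to assemble the base and leave the finished particle. PSMD14, the lid's deubiquitinase, which cuts ubiquitin chains from the substrate, was at 98.5 and 81.7 CPM in the wild-type pair, against 90.8 and 102 CPM in the transgenic pair. The wild-type libraries differed from each other more than the group means did (log2 fold change 0.09 ± 0.15 SE; adjusted p = 0.88 in edgeR). PSMD6 was at 52.6 and 50.5 CPM in the wild-type pair, against 53.2 and 64.1 CPM, the highest fitted change of the class (log2 fold change 0.19 ± 0.15 SE; adjusted p = 0.81). PSMD3 was at 118 and 127 CPM in the wild-type pair, against 122 and 151 CPM (log2 fold change 0.16 ± 0.15 SE). Transgenic library 1 lay close to or within the wild-type pair in both genes and transgenic library 2 above it.

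All 8 lid genes were higher in transgenic library 2 than in transgenic library 1, and 7 of 8 were higher by sign in the fit, with a median log2 fold change of 0.12. The median over the lid was 0.29 above the wild-type mean in transgenic library 2 and -0.04 from it in transgenic library 1. PSMD11, PSMD13 and PSMD7 reached 110, 125 and 185 CPM in transgenic library 2, compared with 88.3, 95.03 and 144 CPM in transgenic library 1. Their wild-type levels were 88.2 and 89.4 CPM for PSMD11, 104 and 97.0 CPM for PSMD13, and 156 and 147 CPM for PSMD7. PSMD12 alone had the other sign in the fit over all 4 libraries, with 102 and 101 CPM in the wild-type pair, against 96.3 and 105 CPM (log2 fold change -0.01 ± 0.12 SE). SEM1, a small lid subunit whose symbol falls outside the PSM names, lay the other way from most of the lid, at 33.4 and 35.8 CPM in the wild-type pair, against 28.4 and 26.3 CPM in the transgenic pair (log2 fold change -0.34 ± 0.15 SE; adjusted p = 0.79 in edgeR).

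In the base, PSMD2 and PSMD1 are the large scaffolds on which ubiquitin-carrying shuttle proteins dock, and PSMD4 is a receptor for ubiquitin chains. PSMD2 was at 239 and 244 CPM in the wild-type pair, against 238 and 248 CPM in the transgenic pair, which enclosed it (log2 fold change 0.01 ± 0.12 SE, 95% interval -0.29 to 0.31). PSMD4 was at 132 and 115 CPM in the wild-type pair, against 106 and 113 CPM. Each transgenic library was under the wild-type pair, transgenic library 2 by a narrow margin (log2 fold change -0.17 ± 0.13 SE; adjusted p = 0.80 in edgeR). PSMD1 ran from 209 to 246 CPM with overlapping groups. The base chaperones PSMD5, PSMD9 and PSMD10 had log2 fold changes of 0.11, 0.04 and 0.01. PSMD5 was the 1 of them whose groups did not overlap, as in 19.5% of all genes tested on the higher side. It was at 40.5 and 39.7 CPM in the wild-type pair, against 41.1 and 45.7 CPM in the transgenic pair.

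The activator genes held the highest fitted changes of all members. PSME1 and PSME2 encode the subunits of the PA28αβ ring, which opens the core for peptide release, is induced by interferon-γ and is known for its part in making peptides for MHC class I. PSME1 was at 23.2 and 21.7 CPM in the wild-type pair, against 25.4 and 39.3 CPM in transgenic libraries 1 and 2. PSME2 was at 15.7 and 16.2 CPM in the wild-type pair, against 17.6 and 28.7 CPM. Both transgenic libraries lay above both wild-type libraries in each gene, and transgenic library 2 lay far above transgenic library 1. Groups without overlap on the higher side occurred in 5 of 43 members (PSMA5, PSMD5, PSMD6, PSME1 and PSME2), where 19.5% of all genes tested did the same.

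The fitted change was 1.44-fold for PSME1 (log2 fold change 0.53 ± 0.25 SE, 95% interval -0.10 to 1.153) and 1.45-fold for PSME2 (log2 fold change 0.54 ± 0.28 SE, 95% interval -0.16 to 1.24). Neither passed edgeR's test (unadjusted p = 0.083 and 0.11; adjusted p = 0.79 for both). Without transgenic library 1 they were the 2 members called, with log2 fold changes of 0.80 (adjusted p = 0.030) and 0.85 (adjusted p = 0.031), in a fit that called 4.52% of all genes as higher and rests on a single transgenic library. No member was called as lower there, against 5.4% of all genes. Without transgenic library 2 the values were 0.18 and 0.14 (adjusted p = 0.97 for both), and no member was called, against 0.0175% of all genes as higher and 0% as lower. In the RefSeq annotation of the marmoset assembly calJac240_pri (the build of the counts is not given), 1 protein-coding gene separates PSME1 from PSME2.

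The other activator genes encode proteins found mainly in the nucleus. PSME3, the gene of PA28γ, was at 107 and 94.7 CPM in the wild-type pair, against 104 and 107 CPM in the transgenic pair (log2 fold change 0.07 ± 0.13 SE, 95% interval -0.25 to 0.39). PSME4, the gene of PA200, was at 66.8 and 61.3 CPM in the wild-type pair, against 59.2 and 64.2 CPM (log2 fold change -0.05 ± 0.14 SE, 95% interval -0.39 to 0.29). The groups of both overlapped, and transgenic library 2 lay within or at the edge of the wild-type range. Whether these genes differed from PSME1 and PSME2 in their change was not tested.

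The 3 inducible subunits, which in the immunoproteasome take the places of PSMB5 (PSMB8), PSMB6 (PSMB9) and PSMB7 (PSMB10), were not members and are given for comparison. PSMB8 was at 3.02 and 2.34 CPM in wild type, at 1.54 CPM in transgenic library 1 and at 11.0 CPM in transgenic library 2. PSMB9 was at 0.93 and 0.80 CPM in the wild-type pair, against 1.396 and 3.101 CPM in the transgenic pair, on 11 to 56 counts. PSMB10 was at 21.0 and 20.3 CPM in the wild-type pair, against 16.5 and 21.2 CPM. PSMB8 and PSMB9 were thus highest in transgenic library 2, as were PSME1, PSME2, PSMB6 and PSMB7. PSMB10 was highest there by a narrow margin only. None of the 3 inducible subunits passed edgeR's test (log2 fold changes 1.24 ± 0.88 SE, 1.38 ± 0.54 SE and -0.13 ± 0.20 SE; adjusted p = 0.80, 0.79 and 0.87). PSMB8 changed sign without transgenic library 2, to a log2 fold change of -0.79, and was at 2.04 without transgenic library 1. PSMB9 kept its sign, at 0.68 without transgenic library 2 and 1.83 without transgenic library 1. Each of these fits rests on 1 transgenic library and takes its spread from the wild-type pair.

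**Figure D2:**
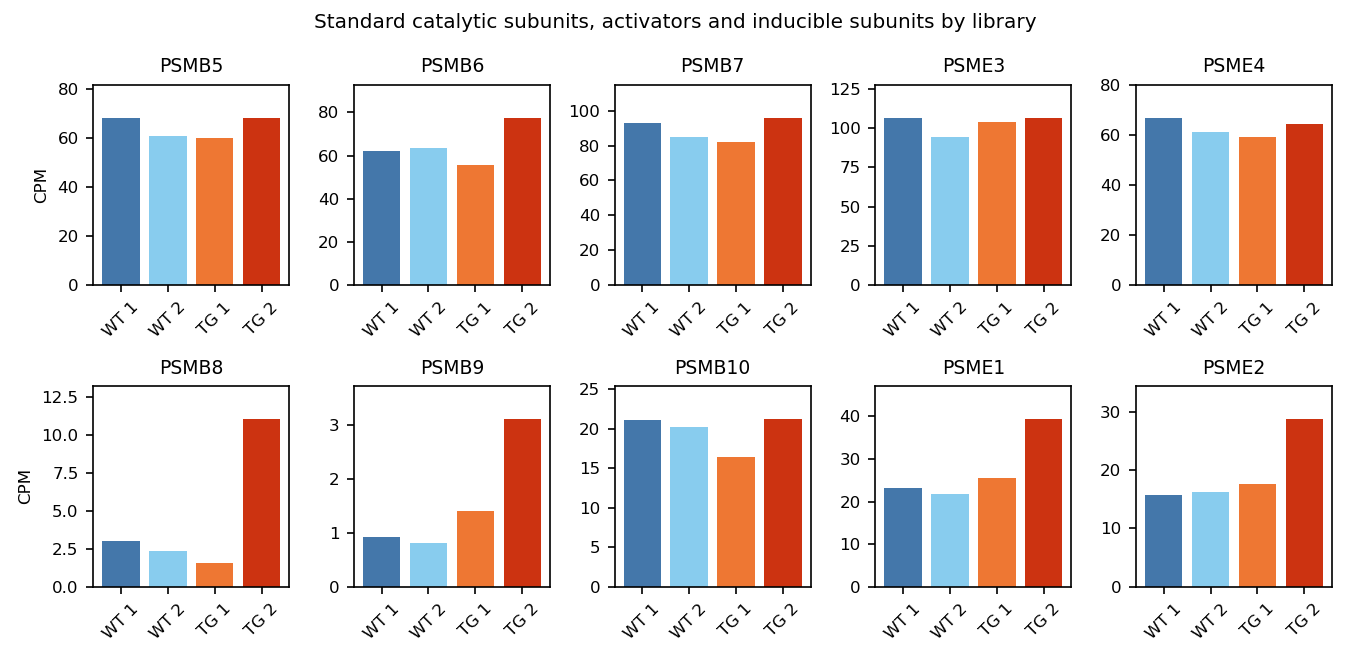
Level in CPM (TMM-scaled, vertical axis, each panel on its own scale from 0) of the catalytic subunits, activators and inducible subunits in each of the 4 libraries (WT, wild type; TG, transgenic). Each bar is 1 library: PSMB8, PSMB9, PSME1 and PSME2 are highest in transgenic library 2, at 11.0, 3.101, 39.3 and 28.7 CPM. PSMB6, PSMB7 and PSMB10 are also highest there, at 77.5, 95.8 and 21.2 CPM, PSMB10 by a narrow margin. PSMB5, PSME3 and PSME4 are not.

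PSMF1 encodes PI31, a protein that binds the core and inhibits it in vitro. It was at 90.1 and 81.0 CPM in the wild-type pair, against 80.8 and 83.1 CPM in the transgenic pair, and the groups overlapped (log2 fold change -0.06 ± 0.13 SE; adjusted p = 0.91 in edgeR). The PSMG genes encode chaperones that pair up to assemble the alpha ring. PSMG1 was at 22.9 and 22.2 CPM in the wild-type pair, against 21.2 and 24.2 CPM, and PSMG2, its partner, at 13.1 and 13.5 CPM and at 10.7 and 14.8 CPM. Both had transgenic library 1 lowest and transgenic library 2 highest. PSMG3 was at 9.36 and 8.12 CPM in the wild-type pair, against 8.01 and 8.64 CPM. PSMG4, the partner of PSMG3, was the least covered of the detected members, with 53 and 71 counts in wild type and 44 and 65 counts in the transgenic libraries. Scaled to library size these were 4.10 and 5.19 CPM against 3.23 and 3.60 CPM, with the transgenic pair under the wild-type pair (log2 fold change -0.44 ± 0.31 SE, 95% interval -1.22 to 0.34; adjusted p = 0.80 in edgeR).

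The libraries within a group differed from each other in a common order over the members. Transgenic library 2 was above transgenic library 1 in 38 of 43 members, against 50.5% of all genes tested. It lay above both wild-type libraries in 26 of 43 members, against 39.9% of all genes. Transgenic library 1 was the lowest and transgenic library 2 the highest of the 4 in 16 members, against 9.4% of all genes. On the log2 scale the members deviated from their wild-type means by a median of -0.08 in transgenic library 1 and 0.08 in transgenic library 2, with 0.04 and -0.04 in wild-type libraries 1 and 2. The wild-type libraries differed by a median of 0.10 (absolute log2 difference per gene) over the members, against 0.18 over all genes tested and 0.16 over those in the same range of counts. The transgenic libraries differed by 0.19 over the members, against 0.29 and 0.26. The count depends in part on the scaling of the libraries: transgenic library 2 had a TMM factor of 0.96 and the others factors of 1.01 to 1.02, and with unscaled totals transgenic library 2 was above transgenic library 1 in 31 of 43 members, against 42.3% of all genes. In transgenic library 2 the summed glial markers were also the lowest of the 4, and their part in these values was not tested.

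**Figure D3:**
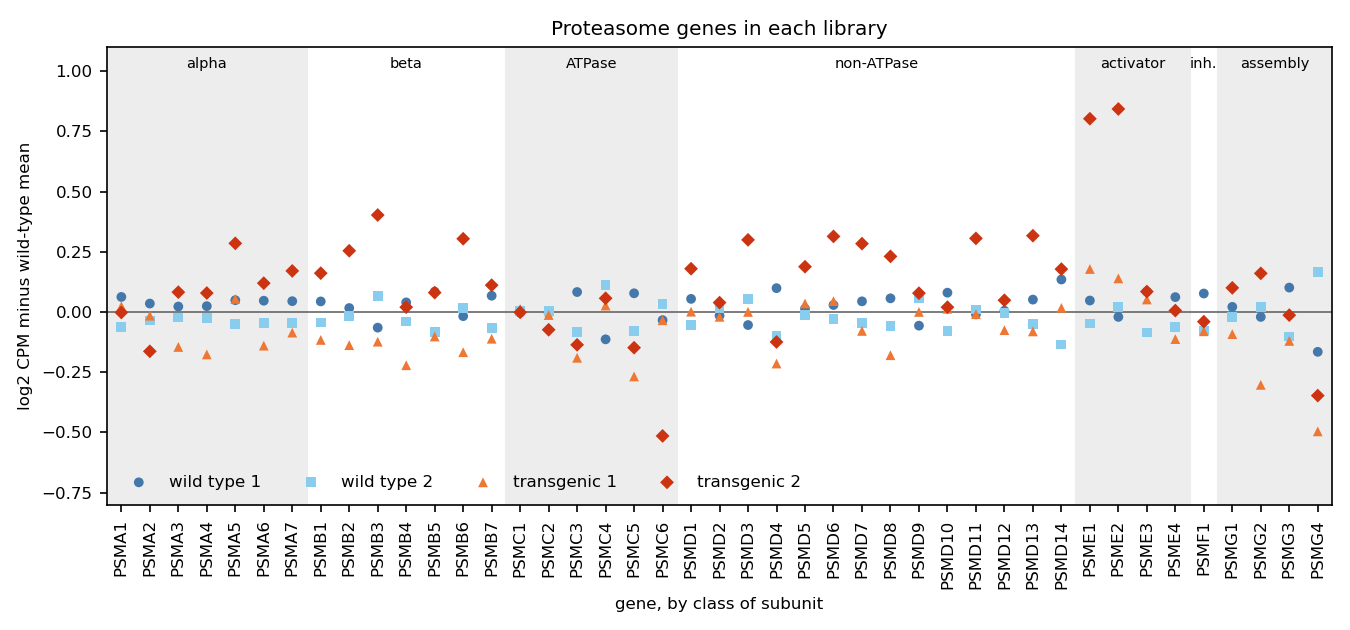
Deviation of each of the 43 detected proteasome genes from its wild-type mean, in log2 CPM (vertical axis), by class of subunit (horizontal axis), with 1 point per library. Transgenic library 2 (diamonds) lies above transgenic library 1 (triangles) in 38 of 43 genes, is highest in PSME1 and PSME2 and is lowest in PSMC6; the wild-type points lie at equal distances from 0 because the deviations are taken from their mean.

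The log2 fold changes of the members ran from -0.44 to 0.54 and, without PSME1 and PSME2, from -0.44 to 0.19. The estimate lay within 1.5-fold for all 43 and for 85.1% of all genes tested, and within 1.25-fold for 40 members and 66.6% of all genes. The exceptions at 1.25-fold were PSME1, PSME2 and PSMG4. The members were not matched to other genes by level here, and the part of level in these shares was not tested.

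**Figure D4:**
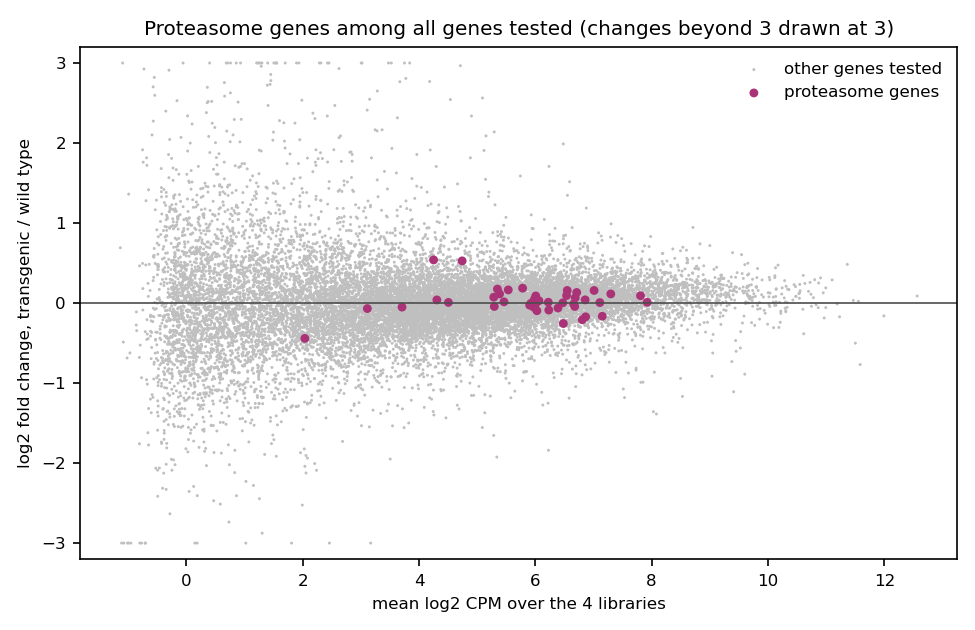
Fitted log2 fold change of transgenic over wild type (vertical axis) against the mean log2 CPM over the 4 libraries (horizontal axis) for 16385 genes tested, with 1 point per gene. The 43 proteasome genes (large points) lie between -0.44 and 0.54, inside the cloud of the other genes at their level.

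Partners of the proteasome whose symbols do not begin with PSM were taken from lists drawn up from general knowledge of the pathway. Earlier results of these data were known when the lists were drawn up. Of 11 further subunits and assembly or accessory factors, none passed in either direction; 9 were higher and 2 lower by sign, and the median log2 fold change was 0.03. ECPAS, which tethers core and regulatory particle, was at 121 and 106 CPM in the wild-type pair, against 122 and 145 CPM in the transgenic pair (log2 fold change 0.23 ± 0.15 SE; adjusted p = 0.79 in edgeR). SEM1, described above with the lid, had the smallest p of this list. The ubiquitin receptor ADRM1 and the core chaperone POMP had log2 fold changes of 0.03 each.

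Of 9 genes that control the transcription of proteasome genes, none passed in either direction and the median log2 fold change was 0.15. NFE2L1 encodes the factor that raises proteasome genes when the proteasome is inhibited. It was at 520 and 476 CPM in the wild-type pair, against 479 and 503 CPM in the transgenic pair (log2 fold change -0.02 ± 0.13 SE). MAFF and MAFK encode small MAF proteins, with which that factor binds DNA as a dimer. MAFF was at 1.86 and 1.54 CPM in wild type, at 1.84 CPM in transgenic library 1 and at 32.4 CPM in transgenic library 2. Transgenic library 1 lay within the wild-type range and transgenic library 2 far above it (log2 fold change 3.34 ± 1.27 SE; adjusted p = 0.79 in edgeR), and without transgenic library 2 the value was 0.11. MAFK was at 10.8 and 13.2 CPM in the wild-type pair, against 14.3 and 15.8 CPM (log2 fold change 0.33 ± 0.22 SE; adjusted p = 0.80).

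Of 17 ubiquitin genes and shuttle factors 16 were tested, since DDI1 had no count, and none passed in either direction. By sign 13 were higher and 3 lower, with a median log2 fold change of 0.06. UBA1, the main enzyme that activates ubiquitin, was at 262 and 256 CPM in the wild-type pair, against 280 and 357 CPM in the transgenic pair (log2 fold change 0.30 ± 0.16 SE; adjusted p = 0.79 in edgeR). UBQLN2, a shuttle that carries ubiquitylated proteins to the proteasome, was at 175 and 191 CPM in the wild-type pair, against 199.98 and 256 CPM (log2 fold change 0.32 ± 0.16 SE; adjusted p = 0.79). In both genes the groups did not overlap and transgenic library 2 was highest. UBB, which encodes ubiquitin as a chain of joined copies, had a log2 fold change of -0.04.

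Several proteasome subunits have processed pseudogenes in primate genomes. The table names 17624 genes only by an identifier of the LOC form, none of which was assigned to the proteasome here, so reads shared with such copies could move the counts of a member. Their part was not tested.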

How the data were processed

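The table deposited by the authors gives raw counts for each gene symbol in each library. Per the submitters' processing notes, kallisto 0.46.2, featureCounts 1.5.2 and STAR 2.5.3a were used, in roles not given; nor are build, annotation or strand setting given in the sources used here. From the counts, genes were kept with filterByExpr in edgeR 4.0.16 (R 4.3.3), scaled by TMM and tested over all genes kept with the quasi-likelihood F-test, genotype as the only term and Benjamini-Hochberg adjustment. CPM use TMM-scaled sizes; deviations use log2 CPM with a prior count of 2. SE is the fitted change divided by the root of F, and intervals are at 95%. An exact permutation test of 2 against 2 cannot go below a two-sided p of 0.33, so none was run.

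Members and lists were chosen with earlier results of these data known. Genes named are a fixed set of 17, the 3 smallest p and both extremes of each class, the 2 smallest p of each of 5 lists and the immunoproteasome subunits; others named were chosen after their values were seen. Alternatives were DESeq2 1.42.0, limma-voom (limma 3.58.1), other scalings and filters, a replicate block and leaving out each library. The fits were tried in 1 run on simulated data with no library set apart, which does not cover the case of transgenic library 2. Gene order came by symbol from RefSeq, where 45 of 45 members matched. Sequences were not used here. Every library pair differed beyond sampling noise.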

Additional observations from a re-analysis of the deposited data

How the results depend on the processing

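Among the members tested PSMG4 had the fewest counts, 44 to 71 per library. DESeq2 called 48 genes (26 higher, 22 lower) and no filter on low counts gave 5, all higher, against 0 in edgeR; none was a proteasome gene. With library totals unscaled, 10 members were lower without overlap, against 22.6% of all genes (6 and 19.4% with TMM), and 15 were higher by sign (26 with TMM); the median of all genes then shifted to -0.05. The replicate block called 0 members and gave a median of 0.01 over them. Samples of the same number were not treated as pairs in the main fit. Their deviations from the group means had a correlation of -0.14 over genes. With 2 libraries per group the crossed numbers give the mirror value (0.14), so this cannot decide whether they are pairs. Crossing the numbers, an alternative chosen after seeing the data, called 0 genes. The block changed no call.

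Leaving out each library in turn, the genes called ranged from 0 to 1710 (higher 0 to 779, lower 0 to 931), most of them without transgenic library 1 and 3 without transgenic library 2. Without transgenic library 1, 27 members were higher without overlap (39.9% of all genes) and 7 lower (40.8%). Without transgenic library 2, 6 were higher (33.8%) and 28 lower (34.4%). Without wild-type library 1 the counts were 10 (31.2%) and 7 (31.5%), and without wild-type library 2 they were 10 (32.3%) and 13 (33.3%). Members higher by sign ranged from 11 to 32. The members' median log2 fold change ranged from -0.0848 to 0.082.

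Of 35 named genes tested, 17 kept their sign under all 12 alternatives. With unscaled totals the sign changed for PSMB7 (-0.0467), PSMD2 (-0.0373), PSMG1 (-0.0413), PSMA7 (-0.0023) and PSMC4 (-0.0087), without a filter for PSMB5 (0.0028), and with a mean count of at least 50 for PSMB7 (-0.0058) and PSMG1 (-0.001). Without single libraries the sign was not stable for the following, given as the range of the log2 fold change: PSMB5 -0.11 to 0.0776, PSMB6 -0.17 to 0.30, PSMB7 -0.12 to 0.11, PSMD14 -0.0317 to 0.23, PSMD2 -0.0234 to 0.0381, PSME3 -0.0131 to 0.15, PSME4 -0.12 to 0.0041, PSMF1 -0.13 to 0.0109, PSMG1 -0.10 to 0.10, PSMG2 -0.31 to 0.16, PSMG3 -0.17 to 0.0307, PSMA7 -0.0897 to 0.17, PSMB3 -0.13 to 0.40, PSMB4 -0.23 to 0.0191, PSMC4 -0.0777 to 0.16, PSMD3 -0.0043 to 0.30, PSMB8 -0.79 to 2.04 and PSMB10 -0.33 to 0.034. The cause was not tested.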
